A study of Drosophila melanogaster with 4 samples.

Results

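Strong compact binding sites of dSFMBT on the large autosome arms of Drosophila melanogaster are described here. They are 350 regions, of 9756 in the list of enriched regions that combined the ChIP replicates. A region was a member when it lay on 2L, 2R, 3L or 3R, overlapped by at least 1 bp a region of the list of each replicate, had a combined score of 1 or more and was under 6000 bp wide. The score is the authors' value for a region and lies on a log2 scale, so a score of 1 is a ratio of 2. The headers do not say what this ratio compares. Score, width and overlap thus chose the members and are given as descriptions, with no test.

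The study mapped dSFMBT by chromatin immunoprecipitation and sequencing in Oregon-R, a wild-type strain, at the third larval instar, and the labels list no mutation or treatment for any group. The ChIP group had 2 replicates, made with the antibody Q2642, and the input group, which is chromatin without the antibody step, had 2 replicates. Each ChIP replicate had its own list of regions, and no region was measured separately in the inputs here. Read depth was unknown from these lists. The material was larval tissue of many cell types, so a low score from few bound cells and a low score from weak binding in all cells cannot be told apart. The labels do not say if the replicates came from different larvae, so the SD between them may be technical.

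dSFMBT is a Polycomb group protein with MBT domains, which bind methylated lysines of histone tails. It forms the complex PhoRC with Pho, a zinc-finger protein that recognises a short DNA motif, and PhoRC is known for its place at Polycomb response elements, short stretches of DNA from which Polycomb group proteins keep developmental genes silent. Other Polycomb group complexes spread from such elements over wider domains of chromatin. No sequence is shown and regions are given by position without gene names, because positions are in FlyBase release 5 and the gene table at hand belonged to release 6.

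On the autosome arms, 7197 regions of the combined list were examined, and 3121 of them (43.4%) overlapped a region of each replicate. These 3121 are called reproducible here. The 350 members were 11.2% of them, the share that the score and width limits fixed. The other reproducible regions were 2537 weak regions, under 6000 bp wide with a score below 1, and 234 broad regions of 6000 bp or more, of which 24 also had a score of 1 or more. Before overlap with the replicates was required, 387 compact regions of the arms had a score of 1 or more. Of these, 36 were under 2000 bp wide, and 0 of the 36 were found in both replicates, although their scores reached 3.84. In neither replicate list were 32 of them, while 3 were in that of replicate 1 alone and 1 in that of replicate 2 alone. The replicate lists held no region narrower than 1301 bp, while the combined list went down to 1001 bp. These 36 regions had a median width of 1028 bp. Reproducible weak regions also went down to 1001 bp, and the part of width in this count was not tested. Of the 351 that were 2000 bp or wider, 350 were found in both. The exception, on 3L from 24476381 to 24479399, had a score of 1.31 and was in neither replicate list.

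The limits cut through a continuous range. Just inside the score limit lay a 2R region from 9440230 to 9442686 at 1.0005, a 3R region from 22013418 to 22015720 at 1.0013 and a 3L region from 9046074 to 9050077 at 1.0019. Just outside it lay a 2R region from 8790708 to 8793704 at 0.9999, a 2R region from 1380794 to 1384819 at 0.9992 and a 3R region from 20409898 to 20413566 at 0.9988. Many members sat close above the limit, since the lower quartile of their scores was 1.11, the median 1.23 and the highest 2.86. The widest members were 5970 bp on 3L from 9500266 to 9506235, 5940 bp on 2L from 6917217 to 6923156 and 5606 bp on 3L from 221151 to 226756. Among broad regions with a score of 1 or more, the narrowest were 6064, 6428 and 6440 bp wide. The narrowest broad region of any score was 6003 bp wide.

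The highest member on each arm had a combined score of 2.46 or more. The member with the highest combined score, on 3R from 27896184 to 27899626, scored 2.78 in replicate 1 and 2.93 in replicate 2, a mean of 2.85 ± 0.11 (SD, n = 2). A 3R member from 12588526 to 12591189 scored 2.77 in each library. A 3R member from 12773302 to 12775732 scored 2.66 and 2.86, a mean of 2.76 ± 0.14 (SD, n = 2). These 3 members of 3R lay above the highest member of every other arm by combined score.

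On 3L the leading member, from 6895900 to 6898501, scored 2.39 in replicate 1 and 2.79 in replicate 2 (2.59 ± 0.28, SD, n = 2). It was followed by a member from 8441351 to 8444491 at 2.24 and 2.63 (2.43 ± 0.28, SD, n = 2) and one from 2850442 to 2853126 at 1.74 and 2.67 (2.21 ± 0.65, SD, n = 2). All 3 were higher in replicate 2, and the gap of the last was 0.92. On 2R the leading member, from 20072687 to 20077006, scored 2.46 and 2.68 (2.57 ± 0.16, SD, n = 2). A member from 15154440 to 15157776 followed at 2.03 and 2.74 (2.39 ± 0.50, SD, n = 2), and one from 7414384 to 7418381 at 2.20 and 2.32 (2.26 ± 0.088, SD, n = 2). The 2R members thus ranged from a gap of 0.12 to a gap of 0.70 between the libraries.

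The 3 leading members of 2L differed by at most 0.07 between the libraries. The first, from 3537430 to 3541581, scored 2.47 in replicate 1 and 2.54 in replicate 2 (2.50 ± 0.047, SD, n = 2). The second, from 5078 to 9889 near the telomere, scored 2.47 and 2.45 (2.46 ± 0.014, SD, n = 2), and the third, from 20769391 to 20772067, scored 2.17 and 2.16. Ranked by the lower of the replicate scores, the first 5 members were 4 on 3R and 1 on 2L: the 3R members from 27896184, 12588526, 12693758 and 12773302, and the 2L member from 3537430. Of the 20 members with the highest combined score, 11 lay on 3R and 3 on each of the other arms. Among all members, 121 lay on 3R, 79 on 2R, 76 on 2L and 74 on 3L. Of the 11 on 3R, 5 lay in a single stretch from 12.6 to 12.8 Mb, described below. The count on 3R thus owes much to this stretch, and the arms were not tested against each other.

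**Figure D1:**
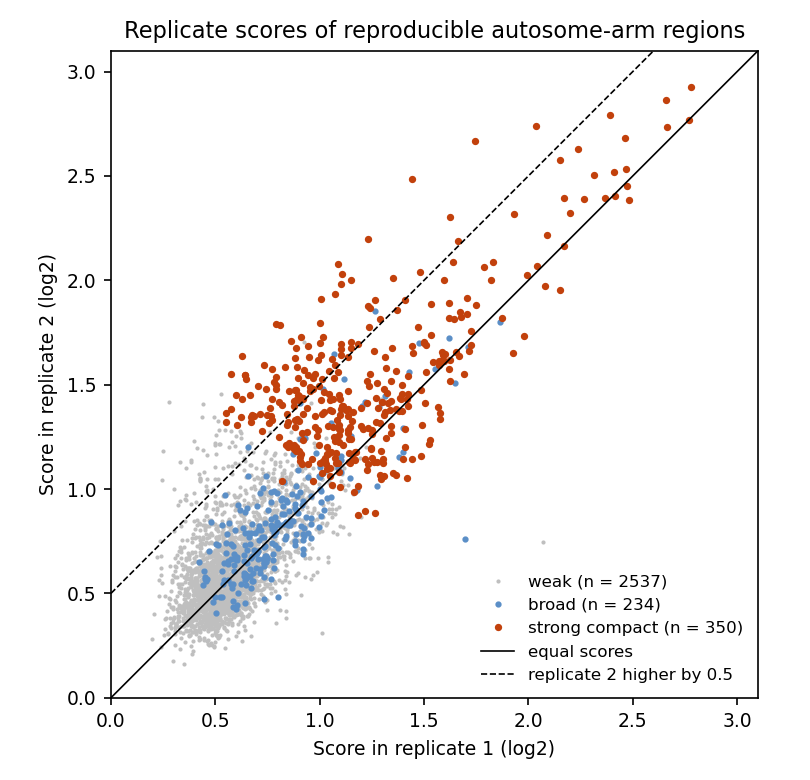
Score of each reproducible autosome-arm region in replicate 1 (horizontal axis, log2) and replicate 2 (vertical axis, log2), for 2537 weak, 234 broad and 350 strong compact regions. The solid line marks equal scores and the dashed line replicate 2 higher by 0.5; 101 strong compact regions lie above the dashed line, among them 2 of the 20 with the highest combined scores.

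The members were higher in replicate 2 than in replicate 1. Replicate 1 scores ran from 0.55 to 2.78 with a median of 1.14, and replicate 2 scores from 0.88 to 2.93 with a median of 1.43. In replicate 2, 346 of the 350 members reached a score of 1, against 248 in replicate 1. Both replicates reached 1 in 244 members (69.7%, 95% exact Clopper-Pearson interval 64.6 to 74.5%, counting error only). Over all reproducible regions of the arms the share was 9.32%, and nothing is read from the difference, because the reads behind the replicate scores also made the combined score that chose the members. Across the 350 members the replicate scores had a Spearman rho of 0.40 and a Pearson r of 0.69. These coefficients run across regions, all from the same pair of libraries.

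The difference between the replicates was not spread evenly around its centre. Replicate 2 minus replicate 1 had a median of 0.22 and a mean of 0.28 ± 0.32 (SD over 350 members), and it was positive in 285 members. Counted in steps of 0.1, the number of members peaked at 49 between 0 and 0.1, fell to 22 between 0.4 and 0.5, and rose again to 37 between 0.5 and 0.6. Whether the second rise holds with other steps was not tested. A difference above 0.5 was found in 101 members (28.9%, 95% exact interval 24.2 to 33.9%), against 5.64% of all reproducible regions. Replicate 1 was higher by more than 0.5 in 0 members, against 0.0961% of all reproducible regions. The upper end of its 95% exact interval was 1.05% (0.857% by a limit of 3 counts). Both intervals cover counting error only. They count regions of the same pair of libraries as independent and measure no spread between libraries. The weak and broad regions were centred near equality, with medians of 0.02 each, and 71 of 2537 weak and 4 of 234 broad regions had a difference above 0.5. Such a difference was found in 0% of compact reproducible regions with scores below 0.4 and in 20.8% of those from 0.9 to 1. The shares over all, weak and broad regions thus depend on the scores in each set and are no like comparison for the members.

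**Figure D2:**
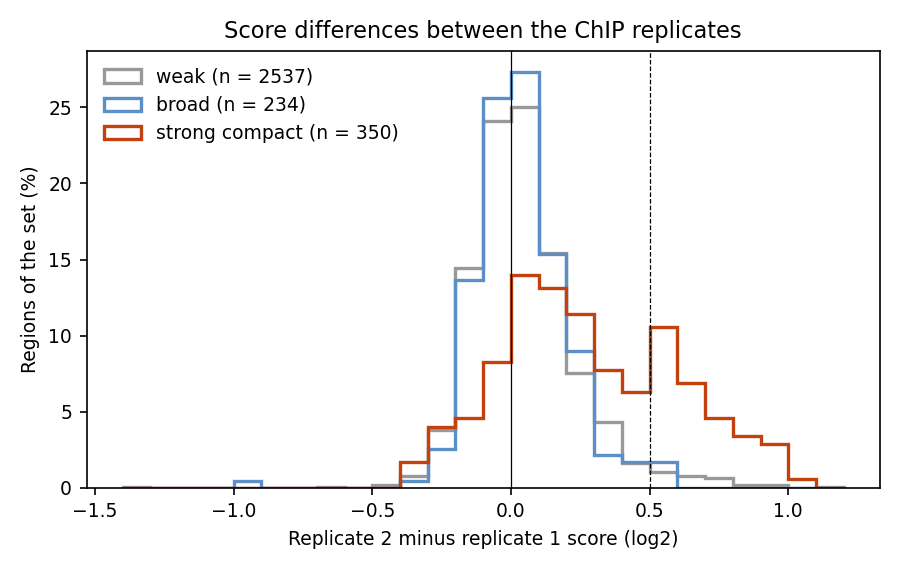
Replicate 2 minus replicate 1 score (horizontal axis, log2, in steps of 0.1) as a percent of each set (vertical axis), for 2537 weak, 234 broad and 350 strong compact regions. The solid vertical line is at 0 and the dashed one at 0.5. In these steps the strong compact regions peak just above 0 and rise again just above 0.5, while the weak and broad regions have 1 peak near 0.

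The choice of members by combined score moves with this result. Within the members the combined score had a rank correlation of 0.83 with replicate 2 and of 0.73 with replicate 1. Among all compact reproducible regions the median difference was -0.04 for scores below 0.4, 0.10 for scores from 0.7 to 0.8, 0.18 from 0.9 to 1, 0.23 from 1 to 1.2 and 0.29 from 1.2 to 1.5. When compact regions were instead chosen by a replicate 1 score of 1 or more, 296 qualified, and their median difference was 0.07, with a difference above 0.5 in 32 of them (10.8%). Chosen by a replicate 2 score of 1 or more, 512 qualified, with a median of 0.28 and 159 above 0.5 (31.1%). In members with scores from 1.5 upward the median was 0.19, and 16 of those 78 were above 0.5.

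The 5 members with the largest differences were all higher in replicate 2. A 3L member from 20089394 to 20091778 scored 1.44 in replicate 1 and 2.48 in replicate 2. A 2L member from 14093765 to 14095862, at 2098 bp the narrowest of all, scored 0.63 and 1.64. A 3L member from 20703630 to 20705876 scored 0.79 and 1.79, a 3R member from 12398433 to 12401041 scored 1.09 and 2.08, and a 2L member from 18712764 to 18715363 scored 0.58 and 1.55. The combined scores of these 5 ran from 1.09 to 2.04, so they were not confined to the weakest members.

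The members that differed between the libraries lay in emptier surroundings than the others. For each member, the percent of the 50 kb on either side that lay inside other reproducible regions was taken as its flank coverage. The rule did not use the flanks of a member. The replicate lists that gave the difference also decided which neighbours were reproducible, so the 2 measures are not independent. In the 101 members with a difference above 0.5, flank coverage had a median of 8.67% (quartiles 4.48 and 15.8%). In the other 249 it had a median of 15.8% (quartiles 8.96 and 21.6%). The distributions overlapped widely. With coverage taken from all regions of the combined list, the medians were 15.3% in the 101 members and 24.1% in the other 249. Regions are not replicates and the difference limit was chosen after the values were seen, so no test is given. The same order of medians held on each arm: 8.27 against 13.6% on 2L, 10.2 against 16.3% on 2R, 9.47 against 12.7% on 3L and 6.52 against 16.6% on 3R.

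Ordered by flank coverage and cut into 4 groups of 87 or 88, the members gave a steady series. The group with the emptiest flanks, up to 6.93%, had a median difference of 0.45, and 43 of its 87 members were above 0.5. The next groups had medians of 0.24 and 0.20, with 26 of 88 and 22 of 87 above 0.5. In the group with the fullest flanks, from 20.0% upward, the median was 0.13 and 10 of 88 were above 0.5. The median combined score was 1.23 or 1.24 in each of the 4 groups, while replicate 1 had 1.05 in the emptiest and 1.27 in the fullest and replicate 2 had 1.496 and 1.40. Rank correlation of difference with flank coverage over the 350 members was -0.28, and it was -0.32 when coverage was taken from the replicate 1 list and -0.27 from the replicate 2 list.

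Other values moved with the difference. Members above 0.5 were narrower, with a median of 2614 bp against 2981 bp in the others, and the region they overlapped in replicate 1 was narrower too, at 2197 against 2664 bp, while in replicate 2 it was 2555 against 2744 bp. Their median combined scores were 1.23 in both groups. The part of width in the relation to flank coverage was not tested. Of the 296 regions chosen by replicate 1 score, those above 0.5 had a median flank coverage of 6.26%, against 16.5% in the rest. The order was that of the members, but 248 of the 296 were members themselves. This choice is therefore no separate set of regions.

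**Figure D3:**
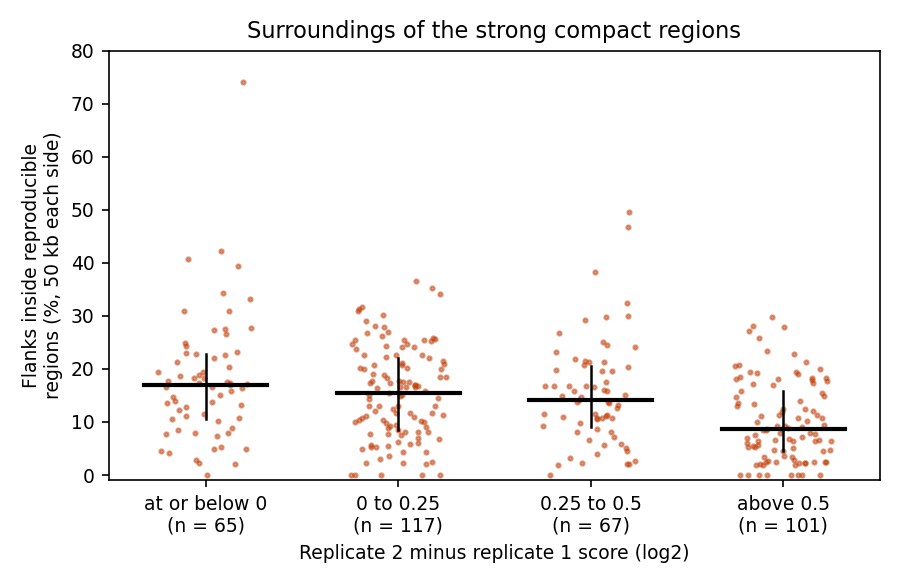
Percent of the 50 kb on either side of each strong compact region that lay inside other reproducible regions (vertical axis), by class of replicate 2 minus replicate 1 score (horizontal axis, log2); points are single regions, horizontal bars medians and vertical bars quartiles. The medians are 17.1, 15.5, 14.2 and 8.67% from the lowest class of difference to the highest, and 1 region at or below 0 lies far above the rest at 74.2%.

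In extent the members were single sites placed alike in the libraries. Their widths ran from 2098 to 5970 bp with a median of 2874.5 bp, and 90% were at most 4459 bp, within a limit that the rule set. Of the 350, 342 (97.7%) overlapped exactly 1 region of each replicate, against 93.4% of the weak and 28.6% of the broad regions. In these 342 the median distance between the centres in the libraries was 60.0 bp, and 285 bp was the 90th percentile. The weak regions with 1 piece in each replicate had a median distance of 142.5 bp and the broad ones 346 bp. Replicate 1 regions covered a median of 92.1% of a member and replicate 2 regions 96.6%, against 82.8 and 90.9% of a weak region. Neither the number of pieces nor the distance between centres was used by the rule, though the width limit bears on both. A narrow region leaves less room for several pieces and for a large distance. The broad regions are therefore no like comparison, while the weak ones share the limit.

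Weak regions, the most numerous set, were also the most frequent neighbours of the members. Within 10 kb, 187 of 350 (53.4%) had a weak region, 19 (5.43%) had a broad one and 42 (12%, 95% exact interval 8.79 to 15.9%) had another member. Any other reproducible region lay within 10 kb of 214 members (61.1%, 55.8 to 66.3%), against 67.5% of the weak regions, 71.8% of the broad ones and 67.1% of all reproducible regions. The share among the members was thus somewhat lower than in each of these sets. No reproducible region lay within 20 kb of 18.3% of the members, against 14.2% of the weak and 14.1% of the broad regions. The intervals here cover counting error only, and these differences were not tested. A reproducible region less than 1 kb away was found at 42 members (12%), against 15.1% of the weak and 22.6% of the broad regions. At 2 of the 42 it was another member. Median flank coverage was 13.3% for members, 13.9% for weak and 16.3% for broad regions. Empty flanks were found at 15 members (4.29%) and at 4.06% of the weak regions, shares close to each other, and 8 of the 15 members were above 0.5 in difference. The highest of the 15 was the 3L member from 6895900, at a combined score of 2.58, and the next had 1.74.

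The members were unevenly shared among windows of 100 kb. Of 969 such windows on the arms, 205 held 1 member, 48 held 2, 11 held 3 and 1 held 4. The highest number was 6, in adjacent windows of 3R from 12.6 to 12.7 Mb and from 12.7 to 12.8 Mb. In this stretch of 3R, picked for its number of members, they were 12 of 21 reproducible regions, and the widest of the 21 was 3.79 kb. The members had a median spacing of 13.5 kb between the centres of neighbours and a range from 3.92 to 28.7 kb. As background from the general map of the fly genome and not from an annotation, this part of 3R is where the bithorax complex lies, the cluster of the Hox genes Ubx, abd-A and Abd-B that gives the segments of the posterior body their identity and holds much-studied Polycomb response elements. The edges of the stretch are those of the windows and not of the complex. Which members in the stretch or around it lie in the complex was not determined.

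Within the stretch, scores of the members fell into a high and a lower range. The member from 12636387 to 12638804 scored 2.32 in replicate 1 and 2.51 in replicate 2. The member from 12693758 to 12697423 scored 2.66 and 2.74 (2.70 ± 0.051, SD, n = 2). The member from 12723652 to 12726854 scored 2.17 and 2.40, and the member from 12794024 to 12797168 scored 2.15 and 2.57. With the member from 12773302 given above, these 5 were the only ones of the 12 with a score above 2 in either library.

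The other 7 scored below 2 in each library. The members from 12707319 to 12709542 and from 12711239 to 12713456 were neighbours, at 1.53 and 1.74 for the first and 1.71 and 1.92 for the second. Members from 12654415 to 12657028, from 12670751 to 12674193 and from 12682389 to 12684751 scored 1.45 and 1.65, 1.08 and 1.33, and 1.15 and 1.30 in replicates 1 and 2. In 11 of the 12 members replicate 2 was the higher. The exception, from 12743986 to 12747579, scored 1.52 in replicate 1 and 1.21 in replicate 2.

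The median difference over the 12 was 0.20 and only 1 of them, the first of the stretch from 12622583 to 12625610 at 0.81 and 1.42, was above 0.5. That member had the lowest flank coverage of the 12, 18.4%, and the highest was 34.1%. The members around the stretch did not follow flank coverage in order. The member before it, from 12588526, had a flank coverage of 13.3%, below all 12, and was equal in the libraries. The member after it, from 12802444 to 12805948, had 25.9% and scored 1.15 in replicate 1 and 1.70 in replicate 2. Further before it, members from 12527478, 12479169 and 12398433 differed by 0.496, 0.52 and 0.99, with flank coverages of 19.8, 18.999 and 1.83%.

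**Figure D4:**
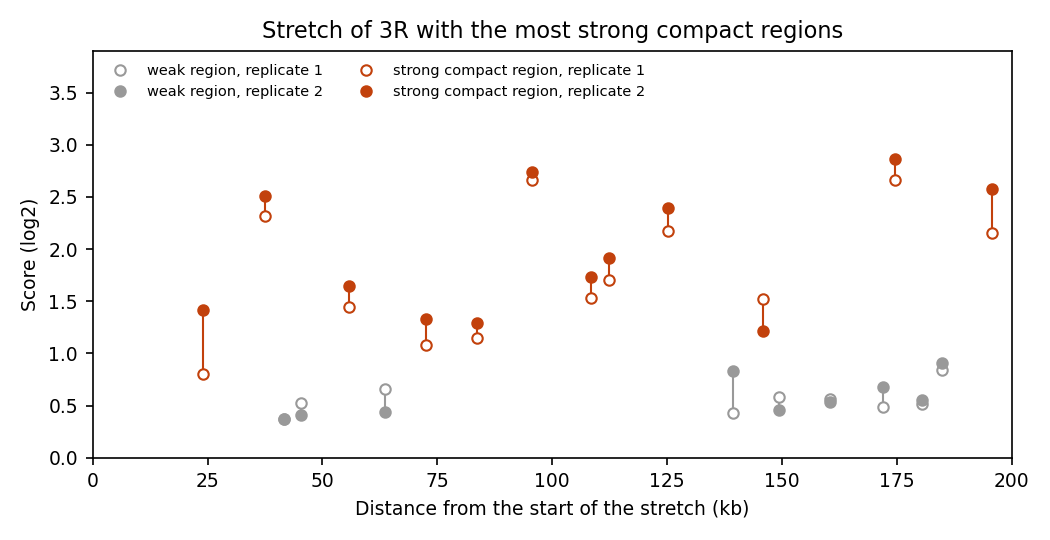
Scores (vertical axis, log2) in replicate 1 (open circles) and replicate 2 (filled circles) of the reproducible regions in the stretch of 3R from 12.6 to 12.8 Mb, by distance of the region's centre from the start of the stretch (horizontal axis, kb); a line joins the replicates of a region. The 12 strong compact regions stand among 9 weak ones, and 5 of the 12 score above 2 in both replicates.

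The window with 4 members was 3L from 9.0 to 9.1 Mb, with 5 reproducible regions. As background of the same kind, the T-box genes Doc1, Doc2 and Doc3, which act in heart and dorsal ectoderm development, lie in this part of 3L. Its members scored 1.59 in replicate 1 and 1.62 in replicate 2 from 9011083 to 9013876, 1.79 and 2.06 from 9033017 to 9035607, 0.92 and 1.51 from 9037321 to 9041770, and 0.90 and 1.33 from 9046074 to 9050077. The first of them was nearly equal between the libraries and the third differed by 0.59.

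Per length, 3R held the most members and 3L the fewest. The densities were 4.34 per Mb on 3R (121 members), 3.74 on 2R (79), 3.30 on 2L (76) and 3.02 on 3L (74), with 3.62 over the 4 arms. Members were 13.2% of the reproducible regions on 3R, 11.3% on 2L, 10.4% on 3L and 9.63% on 2R. Without the stretch from 12.6 to 12.8 Mb, 3R held 3.93 per Mb and was still the highest. With a score limit of 1.2 its density was 1.42 times that of the 4 arms together, while that of 2R turned from 1.03 to 0.87 times, and with a limit of 0.8 2R was the densest, at 7.28 per Mb against 6.88 on 3R. Regions lie in groups and are not independent draws, so arms were not tested against each other. Median scores were 1.27 on 3R, 1.23 on 2L and 1.18 on both 2R and 3L, and the share above 0.5 in difference lay between 26.6% on 2R and 31.6% on 2L.

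Along the arms, members made up the smallest part of the reproducible regions beside the centromere. With each arm cut into 4 equal parts from the telomere inward, they were 11.3, 10.99, 14.3 and 8.86% of the reproducible regions over the 4 arms together. The counts were 85 of 755, 81 of 737, 104 of 726 and 80 of 903. The number of members beside the centromere was thus close to that of the second part, while reproducible regions were more numerous there. The third part owed its value most to 3R, where 44 of 232 regions were members, 12 of them in the stretch described above. The part at the telomere of 3L was the lowest of all, with 10 of 185. The part at the centromere was the lowest of its arm on 2L and 2R, and not on 3L or 3R.

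**Figure D5:**
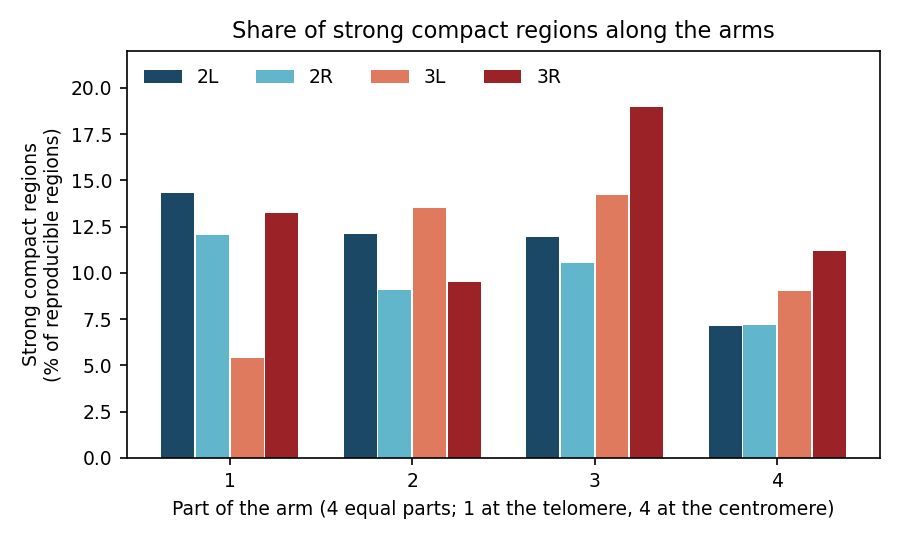
Strong compact regions as a percent of all reproducible regions (vertical axis) in each of 4 equal parts of the arms 2L, 2R, 3L and 3R (horizontal axis, 1 at the telomere and 4 at the centromere). The highest bar is the third part of 3R, with 44 of 232 regions, and the lowest the first part of 3L at 5.41%.

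Each arm also had a long stretch with no member. The longest was 2.75 Mb on 3L, from 3847208 to 6597545, and it held 51 reproducible regions, the highest at a score of 0.98. The longest on 2L was 1.70 Mb with 16 reproducible regions, that on 3R 1.52 Mb with 35, and that on 2R 1.32 Mb with 64, of which 13 were broad. The highest score inside these stretches was 0.97 on 2L, 0.95 on 3R and 1.00 on 2R, the last just below the limit at 0.9992. The 2R stretch ran from 260684 to 1577684, beside the centromere. It held 48.6 reproducible regions per Mb, against 38.8 on 2R as a whole, and 20.3% of them were broad, against 9.39% on 2R. The stretches on 2L, 3L and 3R held fewer reproducible regions per Mb than their arms, 9.44 against 29.2, 18.5 against 29.1 and 23.1 against 32.8. The median distance between the centres of neighbouring members was 159 kb over the 4 arms.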

How the data were processed

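The authors deposited a list of enriched regions for either ChIP replicate and a list that combined them. The submitters' processing notes name Bowtie 0.12.7, and positions are in FlyBase release 5, per the file headers. The region caller, its threshold, the role of the inputs and the handling of multiply matching reads were not given in the sources used here. Each deposited score was read as log2 from its values: differences among the 12 most frequent scores equalled log2 of a fraction (denominator up to 40, tolerance 1e-07) in 15, 44 and 24 of 66 pairs of the combined, replicate 1 and replicate 2 lists, against 0 for natural log or log10.

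Overlaps, distances and coverage were computed with numpy 2.4.6 and pandas 2.3.3 in Python 3.11.15, with intervals from scipy 1.17.1 and figures from matplotlib 3.10.9. On simulated lists, the number of overlapping regions was checked against bedtools 2.31.1. Flank coverage was checked there against a count base by base, and distances were not checked. A replicate score was the highest among the overlapping regions. Regions named were the 3 highest members per arm, the 5 with the largest replicate difference, the 5 with the highest lower replicate score, those at the limits, and the members of the densest 100-kb windows. The window with 4 members, other members around the densest stretch, members with empty flanks and longest gaps were added after their values were seen. Members, lists and limits were chosen with earlier results of these data known. Alternatives were other limits of score, width, overlap and distance, each replicate left out, and the longest overlap for replicate scores. Planned motif, gene-start and gene-list results need a release 5 genome or annotation and were not analysed here.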

Additional observations from a re-analysis of the deposited data

How the results depend on the processing

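The number of members was 195 with a score limit of 1.2 and 600 with 0.8, by construction, and 336 to 364 with a width limit of 5000 or 8000 bp or with 50% of the region covered by each replicate. Densities per Mb followed the score limit: with 1.2 they were 1.87 on 2L, 1.75 on 2R, 1.43 on 3L and 2.87 on 3R, and with 0.8 they were 5.65, 7.28, 5.05 and 6.88. A neighbour distance of 50 kb in place of 10 kb gave 41.7% of members with another member, again by construction. Without 1 replicate list, the number of members was 351 to 353, the share with another member within 10 kb 11.97 to 12.5%, and the density per Mb 3.30 to 3.35 on 2L, 3.78 on 2R, 3.02 to 3.06 on 3L and 4.34 on 3R. The gap in median flank coverage between members above and below a difference of 0.5, -7.15 percentage points, stayed between -4.85 and -6.69 with flanks of 20 or 100 kb, coverage from either replicate list and a limit of 0.6, without the densest stretch, and was -7.13 with a limit of 0.4; these settings and the choice of regions by replicate scores were added after seeing the data. No paired analysis was possible because only the ChIP samples came with regions, and nothing was tested between groups. Depth is unknown, and the lists give no value for stretches that were not called, so absence from a list is not a measured low score.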

Other observations

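The relation between replicate difference and surroundings was also looked at in compact reproducible regions of the arms that fell short of the score limit, a comparison chosen after the values of the members were seen. Of the 470 weak regions with scores from 0.7 to 1, 59 (12.6%) were higher in replicate 2 by more than 0.5. Their flank coverage had a median of 11.3%, against 14.6% in the others. Among the 1543 weak regions with scores from 0.4 to 0.7, 12 had such a difference, with a median flank coverage of 10.9% against 14.2%. The order of the medians was that of the members, and the gap was smaller.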
